A study of Mus musculus with 6 samples.

Results

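The AP-1 genes Fos, Jun and Junb were examined as 3 genomic windows in mouse macrophages, for binding of p300 and PU.1 and for the histone mark H3K4me1. On mm9 the windows cover 80 kb of chromosome 12 around Fos, 220 kb of chromosome 4 around Jun and 40 kb of chromosome 8 around Junb. They run from -35 to 45 kb, from -36 to 184 kb and from -20.5 to 19.5 kb of an approximate position of each gene. Every deposited peak lying within them was taken. Peaks of both conditions that overlapped were merged into sites, which gave 20 of 19879 p300 sites, 51 of 87955 PU.1 sites and 78 of 84743 H3K4me1 peaks, or 149 of 192577 regions in all. The p300 sites numbered 5 at Fos, 12 at Jun and 3 at Junb. They were numbered by chromosome coordinate, and distances are in kb from that approximate gene position, positive towards higher coordinates. RefSeq places Fos on the plus strand and Jun and Junb on the minus strand, so the upstream side of Fos has negative distances and that of Jun and Junb positive ones.

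AP-1 is a transcription factor dimer of basic leucine zipper proteins. Jun (c-Jun) can pair with itself or with Fos (c-Fos), which needs a Jun partner to bind DNA, and Junb is a Jun relative with weaker transactivation. All these genes belong to the immediate early genes, whose transcription responds within minutes to growth factors, cytokines and microbial products such as LPS. p300 is a histone acetyltransferase found at active enhancers and promoters, PU.1 is an ETS family factor on which macrophage development depends, and H3K4me1 marks enhancers and the flanks of promoters.

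The promoter sequences are shown next to the chromatin measured around these genes, and were searched for a set of motifs. Elements farther from the start than the printed bases were not searched. Each line gives the 250 bases before the RefSeq start, 5′ to 3′ on the gene's strand, from build GRCm38.p6, which is a later build than the mm9 of the peak files. Capitals mark the motifs found. The regions are chr12:85473640-85473889 (plus strand) for Fos, chr4:95052223-95052472 (minus strand) for Jun and chr8:84978749-84978998 (minus strand) for Junb.
Fos: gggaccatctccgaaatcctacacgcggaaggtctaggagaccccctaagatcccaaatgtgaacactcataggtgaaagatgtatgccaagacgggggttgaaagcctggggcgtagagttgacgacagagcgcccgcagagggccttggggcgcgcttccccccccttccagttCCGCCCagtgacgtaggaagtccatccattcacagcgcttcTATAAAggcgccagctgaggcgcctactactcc
Jun: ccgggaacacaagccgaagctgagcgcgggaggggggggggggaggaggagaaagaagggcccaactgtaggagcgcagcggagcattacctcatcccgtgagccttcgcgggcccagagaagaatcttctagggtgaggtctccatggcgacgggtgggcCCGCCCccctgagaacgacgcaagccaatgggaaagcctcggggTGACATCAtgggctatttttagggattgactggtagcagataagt
Junb: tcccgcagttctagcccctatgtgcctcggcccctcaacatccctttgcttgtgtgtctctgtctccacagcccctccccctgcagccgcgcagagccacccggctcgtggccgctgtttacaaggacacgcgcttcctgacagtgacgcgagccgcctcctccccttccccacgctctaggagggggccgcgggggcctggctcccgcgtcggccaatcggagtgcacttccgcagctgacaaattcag

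In the Fos promoter TATAAA stood 33 to 28 bases before the start, and GGGCGG, a core to which Sp1 binds, stood on the opposite strand at 74 to 69 bases. In the Jun promoter TGACATCA, the AP-1-like element known for Jun autoregulation, stood 45 to 38 bases before the start, and GGGCGG stood on the opposite strand at 89 to 84 bases. The Junb promoter held none of the motifs searched, which says only that these letters are not in that window. On both strands of 32851 mouse promoters of this length, TGACATCA was found in 2.93%, TATAAA in 12.37% and GGGCGG in 32.74%. The other motifs searched were TGACTCA (AP-1, in 4.46% of promoters), TGACGTCA (the cyclic AMP response element, 1.55%), GAGGAA (the PU.1 core, 23.25%), the CArG box of serum response factor (1.47%) and a decamer kappa B site of NF-kB (0.14%). No motif here overlapped another. The G and C share was 58.4% for Fos, 61.2% for Jun and 66.4% for Junb, against a median of 52.4% over the 32851 promoters. Promoters were also found for 9 of 12 other AP-1 and related genes, such as Fosb, Fosl2 and Atf3, and for 8 of 11 kinases and factors that act on AP-1 genes, such as Mapk8, Elk1 and Srf. GGGCGG was found in 6 of those 9 and 7 of those 8, and TGACATCA, TGACTCA and TGACGTCA in 0 of either list. Binding at these other genes was not analysed here.

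The cells were primary macrophages grown for 7 days from bone marrow of female Fvb mice in medium conditioned by L929 cells, with no other genotype or transgene given. They were untreated or had received LPS, a cell wall component of Gram-negative bacteria, at 10 ng/ml for 2 h. p300 was measured in 2 libraries per condition and PU.1 in 1 per condition, while H3K4me1 and input (chromatin without precipitation) had 1 library each, from untreated cells. The design text calls the p300 libraries different biological replicates, and nothing used here says how many animals each came from. Loci that mark macrophages were not checked, since no mm9 annotation was used here. The 8 libraries held between 5744811 and 7828655 aligned reads.

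The p300 libraries differed in enrichment along the replicate number. Of the distinct reads, 1.89% and 7.16% lay in p300 sites in untreated replicates 1 and 2, and 2.84% and 6.46% in LPS replicates 1 and 2. The share of repeat reads, which were counted once, also differed along it. It was 3.02% and 22.02% in untreated replicates 1 and 2, and 4.03% and 25.82% in LPS replicates 1 and 2. For scaling, the size of untreated replicate 1 came to 30.6% of the size of untreated replicate 2. Its values rest on few reads in the sites, although its 6428281 distinct reads were the most of any p300 library. The scaling therefore raises its background reads as well. Counts below are distinct reads, and p300 values are normalised reads, scaled by the median of ratios over all p300 sites. LPS and untreated p300 libraries were compared with limma voom over 19727 sites, with adjustment over all of them. That fit gave every site a common variance, so neither SE nor p reflects how far the replicates of one site differ.

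In the 20 sites p300 was lower after LPS more often than higher, and most of the lower values lay around Jun. By limma voom 1 site rose (Fos p300 site 5) and 1 fell (Jun p300 site 10) at an adjusted p under 0.05, while over all tested sites 1.97% rose and 0.213% fell. At an unadjusted p under 0.05, 2 sites were higher and 6 lower, where all tested sites gave 11.5% higher and 6.1% lower. Both higher ones were in the Fos window and all 6 lower ones in the Jun window. Both LPS libraries lay below both untreated libraries at 12 of the 20 sites and above them at 2, and at 6 the conditions overlapped. Over all tested sites the LPS libraries lay below at 27.7% and above at 26.9%. The median log2 fold change of the 20 sites was -0.59, and that of all tested sites 0.0. All 20 sites had passed the minimum of 10 reads. Of the 20, 9 came from the untreated peak list alone and 3 from the LPS list alone, against 38.7% and 38.1% of all sites. A site called in a single condition leans towards that condition, and the counts above are not matched for this.

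**Figure D1:**
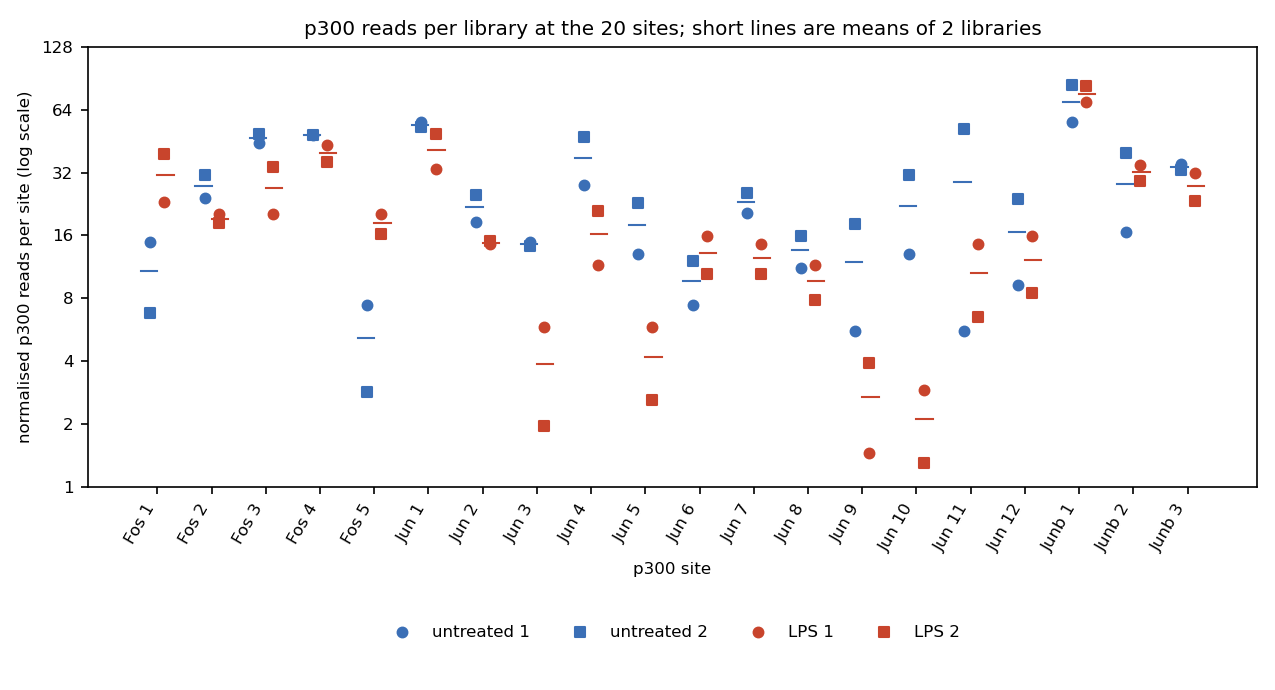
Normalised p300 reads per site (log axis) in each of the 4 p300 libraries at the 20 sites, with circles for replicate 1, squares for replicate 2, blue for untreated, red for LPS and short lines for the mean of 2 libraries. Fos sites 1 and 5 have both LPS libraries above both untreated ones, and most Jun sites have them below.

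At Fos, p300 rose at the site farthest from the gene and had other values at the remaining sites. Fos p300 site 5 lay 39.7 kb from the gene position, at chr12:86854341-86855034. It held 4 and 5 reads in untreated replicates 1 and 2 and 14 and 25 in LPS replicates 1 and 2. The normalised values were 7.44 and 2.85 untreated and 20.3 and 16.3 after LPS. The LPS libraries were above the untreated ones with no overlap, and the means were 5.14 ± 3.25 and 18.3 ± 2.82 (SD, n = 2 each). This is a log2 fold change of 2.32 ± 0.66 (SE), with an adjusted p of 0.0293 by limma voom. Between the libraries numbered 1 the log2 ratio was 1.39, and between those numbered 2 it was 2.33. No label says that libraries of the same number are paired. The call was lost without untreated replicate 2 (log2 fold change 1.15, limma adjusted p = 0.496), without LPS replicate 1 (2.19, limma adjusted p = 0.254) and without LPS replicate 2 (2.55, limma adjusted p = 0.116). It was also lost with total reads (2.07, limma adjusted p = 0.583) or background bins (2.03, 0.634) as library size, with limma-trend (1.61, 0.145) and with all reads kept (1.93, 0.0665).

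PU.1 reads at the same place were also higher in the LPS library. Fos PU.1 site 12, which overlaps Fos p300 site 5, lay at chr12:86854471-86855067 and held 26 PU.1 reads in the untreated and 92 in the LPS library, with 3 input reads. The ratio was 3.54 (exact 95% counting interval 2.27 to 5.70). In the p300 and PU.1 data of LPS cells the densest 200 bp were 50 bp apart. An H3K4me1 peak was present there before LPS, with 46 H3K4me1 against 12 input reads in 2 kb. The other Fos site with an unadjusted p under 0.05 was Fos p300 site 1, chosen for description after its values were seen, 29.1 kb on the upstream side at chr12:86785425-86786284. Normalised p300 was 14.9 and 6.83 untreated and 23.2 and 39.1 after LPS, without overlap (log2 fold change 1.78 ± 0.56, SE, limma adjusted p = 0.0582). The log2 value was 0.94 when untreated replicate 2 was left out and was 2.12 when untreated replicate 1 was left out (limma adjusted p = 0.0143). PU.1 held 32 untreated and 44 LPS reads in this site, a ratio of 1.38 (0.852 to 2.24). Both sites came from the LPS peak list and not from the untreated one, so each was included through the condition where it was higher. RefSeq names Jdp2, which codes for a Jun dimerization protein, as the next coding gene on the side of site 5, and the data do not tie a site to either gene.

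The p300 site nearest to the Fos position was Fos p300 site 3, at -5.3 kb (chr12:86809154-86810211). Its 4 libraries gave 44.6 and 48.9 normalised reads untreated and 20.3 and 33.9 after LPS. The LPS libraries lay below, and the change did not pass the test (log2 fold change -0.83 ± 0.52, SE, limma adjusted p = 0.338). This place also held the most PU.1 reads of the Fos window. Fos PU.1 site 6 (chr12:86809355-86810637) had 221 untreated and 182 LPS reads, a ratio of 0.824 (0.673 to 1.01), at percentile 98.9 of all PU.1 sites by reads. The untreated p300 and PU.1 maxima fell in the same 200 bp. Fos p300 site 4, at 16.1 kb (chr12:86830165-86832060), had the most p300 reads of the window. It gave 48.3 and 48.4 normalised reads untreated and 43.5 and 35.9 after LPS (log2 fold change -0.28 ± 0.53, SE, limma adjusted p = 0.714). The LPS libraries were again lower, by less than the SE. It lay under the widest H3K4me1 peak of the window, 2549 bp long, with 204 H3K4me1 and 21 input reads. Fos p300 site 2, at -18.6 kb, gave 24.2 and 31.3 untreated and 20.3 and 18.3 after LPS.

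At the Fos position itself the data showed PU.1 without a deposited p300 peak. Fos PU.1 site 7, centred at -0.3 kb, had 87 untreated and 66 LPS reads, a ratio of 0.759 (0.542 to 1.06). p300 reads there, as counted, were 11 and 35 untreated and 11 and 26 after LPS, and input had 11. In the 500 bp centred at -0.25 kb normalised p300 was 14.87 and 13.66 untreated and 8.69 and 13.7 after LPS. The missing peak thus does not mean that p300 reads were missing. Summed over the 5 Fos sites, normalised p300 was 139.4 and 138.3 untreated and 127.5 and 143.5 after LPS. The conditions overlapped in this sum, although single sites differed.

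**Figure D2:**
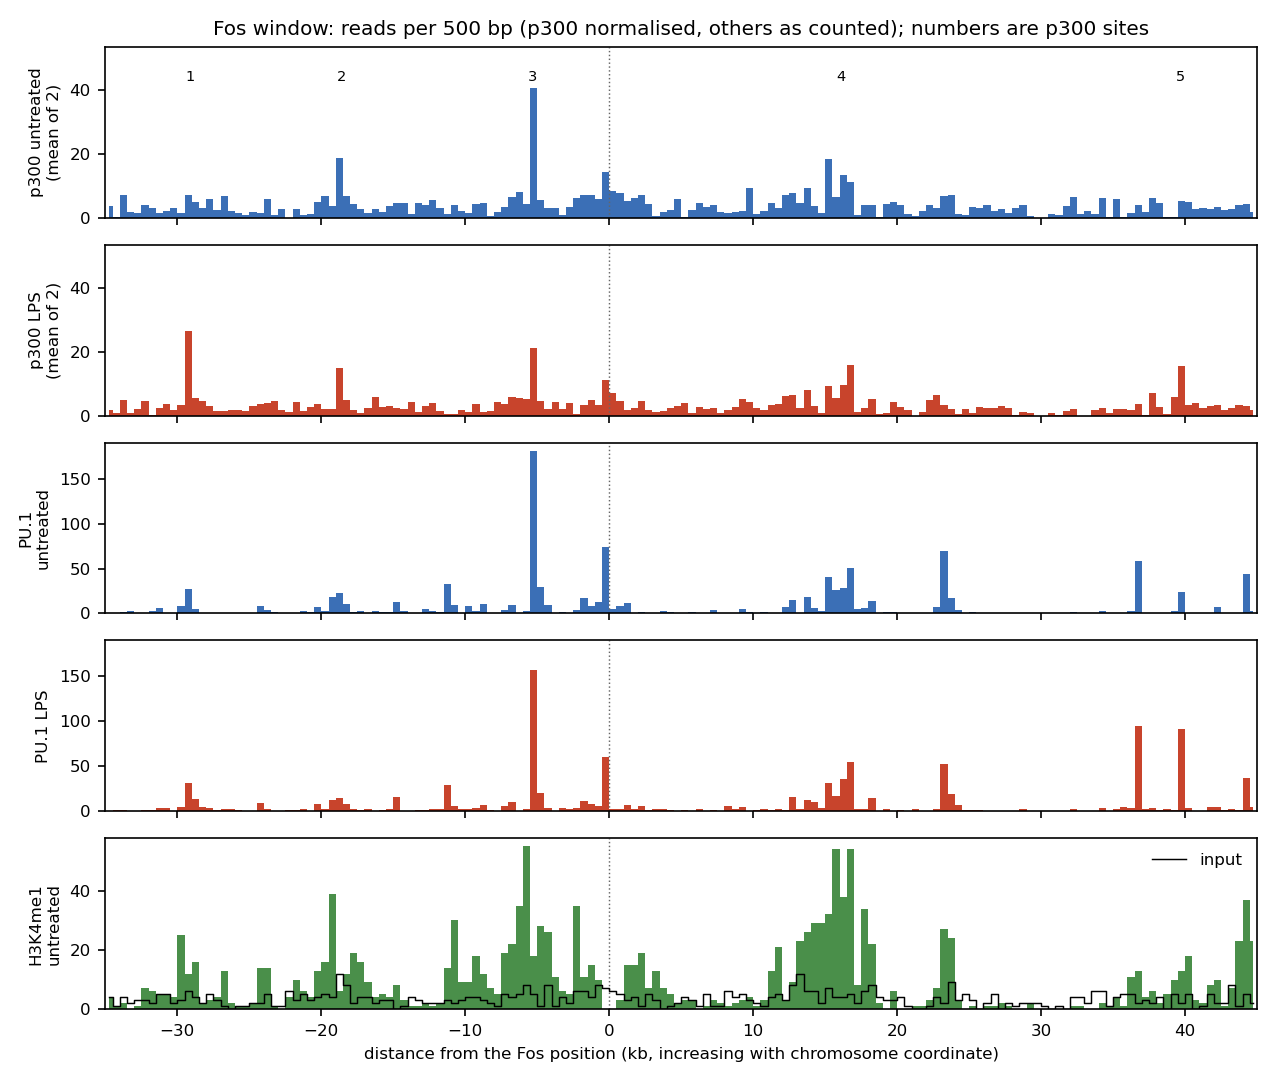
Reads per 500 bp (y axis; p300 as the mean of 2 normalised libraries, the others as counted) against distance from the Fos position in kb, for p300 and PU.1 untreated and after LPS and for H3K4me1 with input as a line. Numbers mark the 5 p300 sites, of which sites 1 and 5 stand higher after LPS and site 3 lower, while PU.1 is higher after LPS at site 5.

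At Jun the sites had lower p300 values after LPS along most of the window. The log2 fold change was below 0 at 11 of 12 sites, with a median of -1.02 and a range from -3.34 to 0.21. Over all tested sites 50.0% were above 0. The Jun window held 12 p300 peaks of untreated cells and 4 of LPS cells, so most of its sites came from the untreated list alone. Such sites lean towards a fall by how they were chosen, and the share over all sites is not matched for this. Jun p300 site 6, with the value of 0.21, came from the LPS list alone. Summed over the 12 sites, normalised p300 was 202.7 and 340.9 untreated and 147.8 and 138.3 after LPS. The LPS sums lay below both untreated sums, and untreated replicate 2 was much the highest. An exact permutation test of 2 against 2 libraries cannot go below 0.333, so none is given for these sums. The sites share libraries and are not replicates of each other. With total reads as library size the median was 0.20 over all sites and -0.68 over the Jun sites, and 11 of 12 stayed below 0. Without untreated replicate 2 the Jun median and count were -0.64 and 9 of 12 sites were below 0, and without LPS replicate 2 they were -0.65 and 10 of 12.

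The one fall that passed the test was at Jun p300 site 10, 163.8 kb on the upstream side of Jun at chr4:94879490-94880206. This site and Jun p300 sites 9 and 11 came from the untreated peak list alone, so each was included through the condition where a peak was called. Jun p300 site 10 held 7 and 55 reads untreated and 2 and 2 after LPS. These are 13 and 31.3 normalised reads untreated and 2.90 and 1.30 after LPS, with no overlap (log2 fold change -3.34 ± 0.99, SE, limma adjusted p = 0.0409). As counted, the whole Jun window held 3.95 and 4.71 reads per kb in LPS replicates 1 and 2. The 2 reads in 716 bp lie below that average, so the size of the fall rests on LPS counts at background level. Between the libraries numbered 1, which no label pairs, the log2 ratio was -1.99, and between those numbered 2 it was -4.14. The call was lost without untreated replicate 2 (-2.79, limma adjusted p = 0.0662), without LPS replicate 1 (-3.68, limma adjusted p = 0.427) and without LPS replicate 2 (-2.44, limma adjusted p = 0.643). It was also lost with total reads (-2.93, limma adjusted p = 0.583) or background bins (-2.98, 0.618) as library size and with TMM scaling (-3.30, 0.0502). No PU.1 peak was deposited there in either condition, but PU.1 reads in the site went from 35 to 7, a ratio of 0.200 (0.0750 to 0.457). H3K4me1 had 134 reads against 18 of input in the surrounding 2 kb before LPS. Its neighbours differed in size. Jun p300 site 9, on the side nearer to Jun at 160.1 kb, gave 5.58 and 18.2 untreated and 1.45 and 3.91 after LPS (log2 fold change -2.01, limma adjusted p = 0.240), and without untreated replicate 2 its log2 fold change was -0.87. Jun p300 site 11, on the far side, gave 5.58 and 51.8 untreated and 14.5 and 6.52 after LPS. Its conditions overlapped, since untreated replicate 1 was the lowest library and replicate 2 the highest. Without untreated replicate 2 its log2 fold change turned from -1.25 to 0.48, and without untreated replicate 1 it was -2.55.

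A further group of low values lay 34.7 to 57.9 kb from Jun, described after the values were seen. Jun p300 site 3, at 34.7 kb, gave 14.9 and 14.2 normalised reads untreated and 5.80 and 1.96 after LPS (log2 fold change -2.31 ± 0.80, SE, limma adjusted p = 0.102). Jun p300 site 5, at 57.9 kb (chr4:94773503-94774293), gave 13 and 22.8 untreated and 5.80 and 2.61 after LPS (-2.37 ± 0.74, SE, limma adjusted p = 0.0586). Neither passed the test, and at both the LPS libraries lay below without overlap. Both came from the untreated peak list alone. Without LPS replicate 2 the values were -1.21 at site 3 and -1.44 at site 5. PU.1 within site 5 went from 45 to 9 reads, a ratio of 0.200 (0.0860 to 0.414). The site beside it differed in this respect. Jun p300 site 4, at 56.9 kb (chr4:94772523-94773354), gave 27.9 and 47.2 normalised p300 reads untreated and 11.6 and 20.9 after LPS (-1.11 ± 0.52, SE, limma adjusted p = 0.254). It held 318 and 309 PU.1 reads, a ratio of 0.972 (0.828 to 1.14). So PU.1 reads were close in both libraries at one of the neighbouring sites and 0.200 of the untreated count at the other, while both had lower p300 values after LPS. The difference between the sites was not tested.

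Near the Jun position 1 wide site held many p300 reads in both conditions. Jun p300 site 1, at 2.6 kb (chr4:94717470-94719739), was the nearest site and had the most p300 reads of the window, for its whole width of 2269 bp. Per kb it was not the highest, with 24.0 normalised reads untreated against 45.2 at Jun p300 site 4. Jun p300 site 1 as a whole was lower after LPS. It gave 55.8 and 52.9 normalised reads untreated and 33.3 and 48.9 after LPS (log2 fold change -0.46 ± 0.53, SE, limma adjusted p = 0.555). The LPS libraries were lower, and the change did not pass the test. Jun p300 site 2, at 4.3 kb, gave 18.6 and 25 untreated and 14.5 and 15.0 after LPS. Next to the Jun position PU.1 had its own site without a p300 peak, Jun PU.1 site 2 at 1.0 kb, with 86 untreated and 102 LPS reads, a ratio of 1.19 (0.881 to 1.60). RefSeq places the antisense RNA gene Junos beside Jun, so these sites cannot be assigned to one of them. The remaining sites were Jun p300 sites 6, 7, 8 and 12, with log2 fold changes of 0.21, -0.93, -0.65 and -0.63, none past the test.

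**Figure D3:**
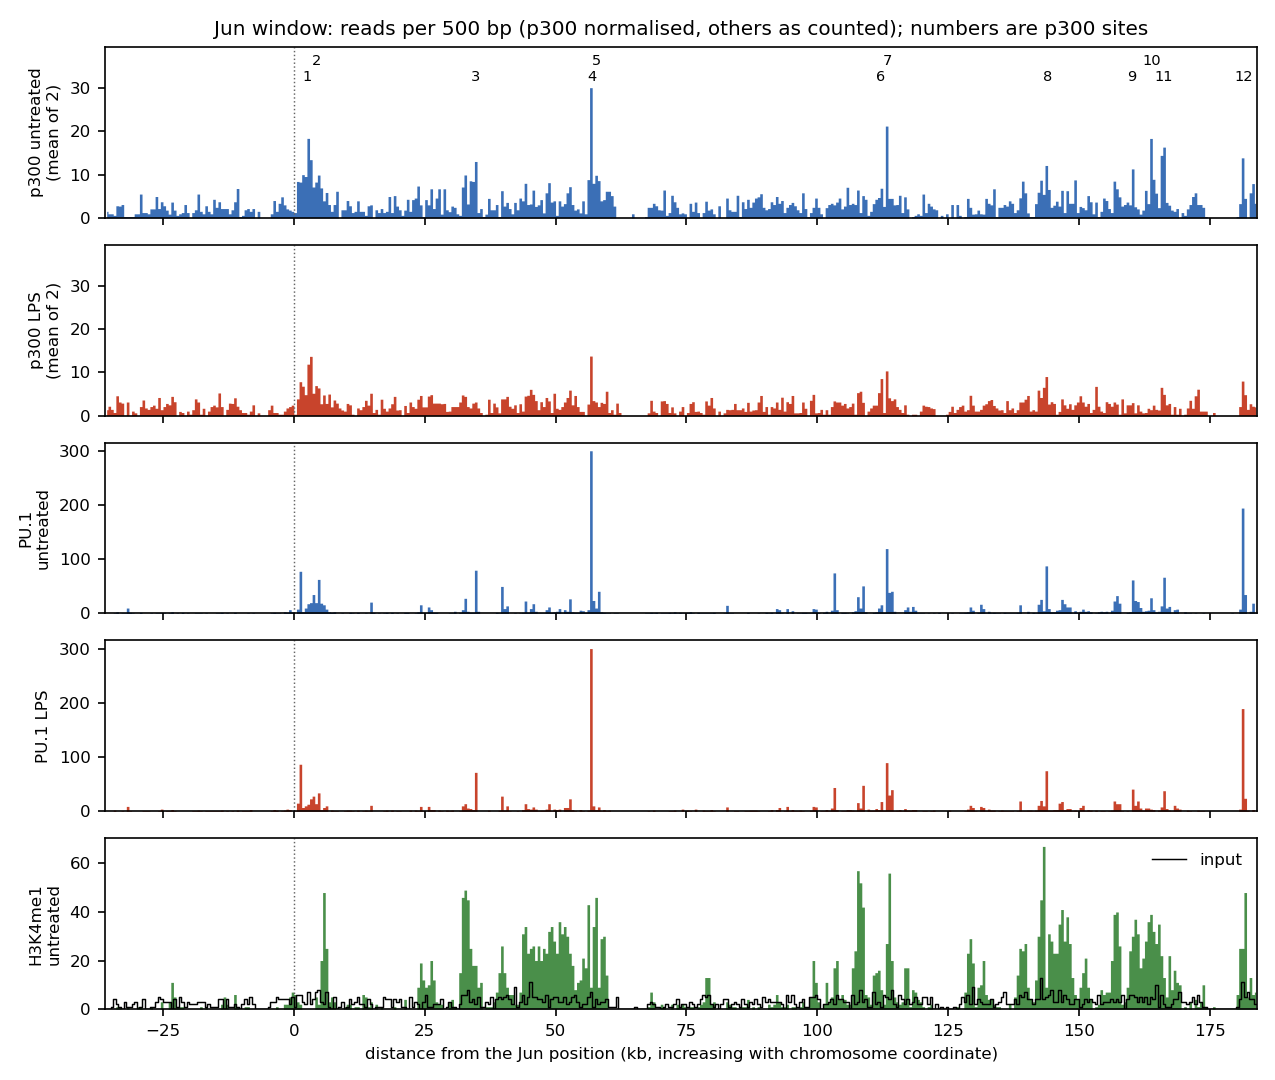
Reads per 500 bp (y axis; p300 as the mean of 2 normalised libraries, the others as counted) against distance from the Jun position in kb, for the same libraries as in the Fos plot. Numbers mark the 12 p300 sites, with p300 lower after LPS at most of them, and the stretches from 62.0 to 67.5 and from 174.5 to 180.0 kb hold 5 and 3 reads over all 8 libraries, input included.

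At Junb the sites held many p300 reads in both conditions, with no change past the test. Junb p300 site 1, at 1.0 kb (chr8:87499833-87503142), was 3309 bp wide and was both the nearest site and the one with the most p300 reads of the window. With 352 reads over the 4 libraries it stood at percentile 99.3 of all p300 sites, for its whole width. It gave 55.8 and 83.7 normalised reads untreated and 69.6 and 82.8 after LPS. The conditions overlapped (log2 fold change 0.18 ± 0.57, SE, limma adjusted p = 0.828). Junb p300 site 2, at 3.3 kb, gave 16.7 and 39.8 untreated and 34.8 and 29.3 after LPS (log2 fold change 0.32), also with overlap. Both log2 fold changes turned below 0 without untreated replicate 1, to -0.15 and -0.31. Junb p300 site 3, at 9.1 kb, gave 35.3 and 33.0 untreated and 31.9 and 23.5 after LPS (log2 fold change -0.31, limma adjusted p = 0.675). Summed over the 3 sites, normalised p300 was 107.8 and 156.5 untreated and 136.2 and 135.6 after LPS, with the LPS libraries between the untreated ones. RefSeq names Prdx2 and Hook2 as neighbours of Junb, and the 3 sites were not assigned among them.

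**Figure D4:**
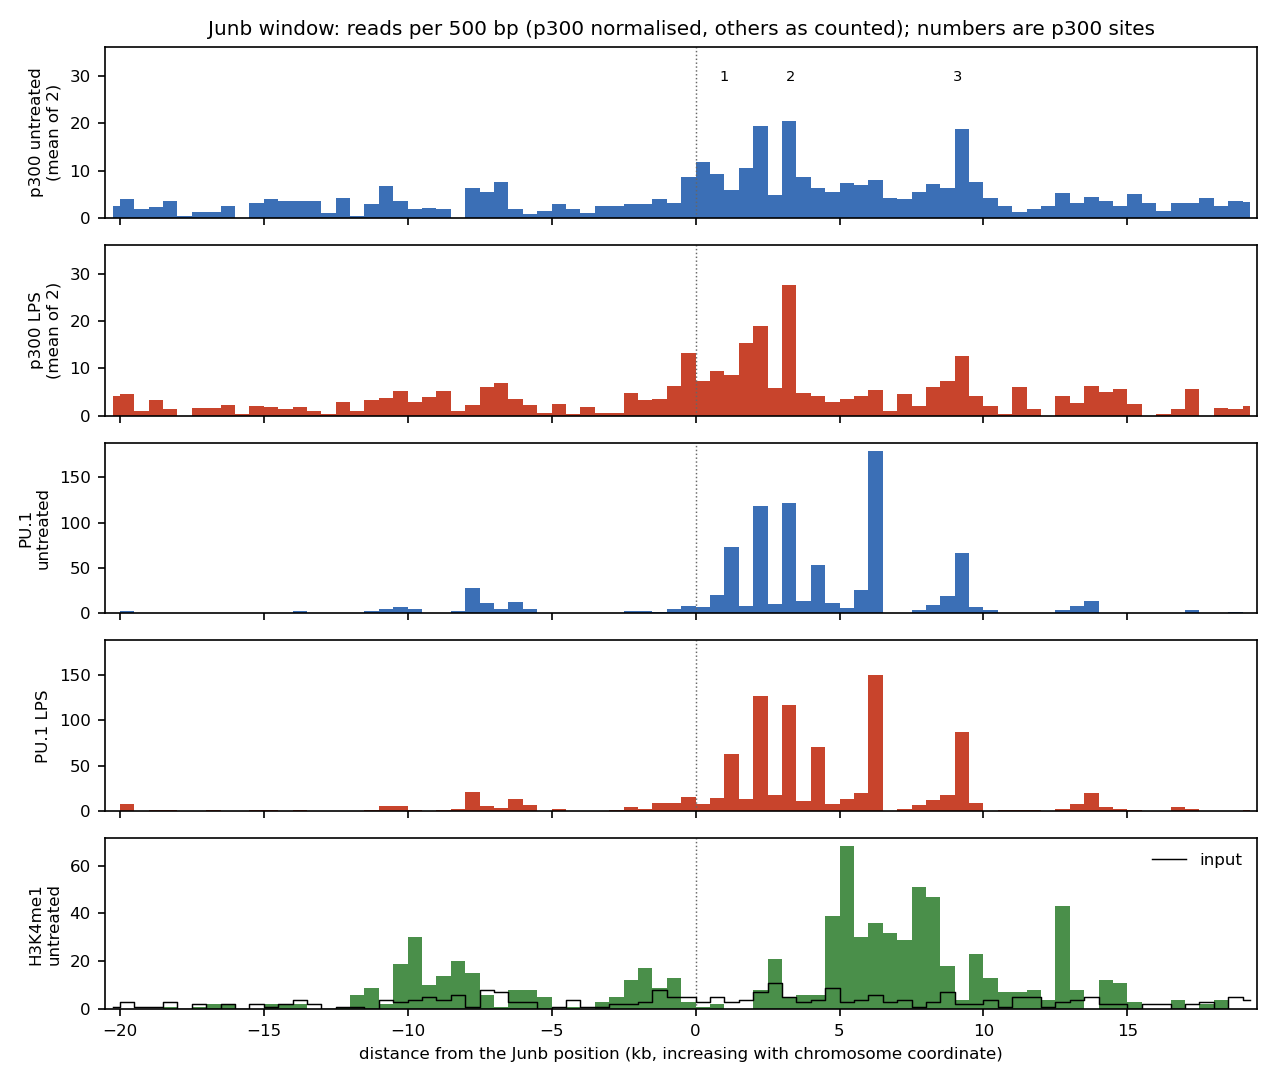
Reads per 500 bp (y axis; p300 as the mean of 2 normalised libraries, the others as counted) against distance from the Junb position in kb, for the same libraries as in the Fos plot. Numbers mark the 3 p300 sites, which stand out in p300 both before and after LPS, with H3K4me1 low over sites 1 and 2.

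Per kb of site width, levels of the 20 sites could be compared with each other. In untreated cells normalised p300 per kb was highest at Jun p300 site 4, with 45.2 ± 16.5 (SD, n = 2), and at Fos p300 site 3, with 44.3 ± 2.90 (SD, n = 2). These values differ by less than the SD of the first. Jun p300 site 1 had 24.0 ± 0.886 and Junb p300 site 1 had 21.1 ± 5.96 per kb (SD, n = 2), again within the larger SD. These 2 sites had the most p300 reads of their windows but are 2269 and 3309 bp wide. Per kb, most of the 20 sites had higher untreated values than either. After LPS they had 18.1 and 23.0 per kb. The lowest untreated value was 7.42 ± 4.68 at Fos p300 site 5. No background was removed from these values. As counted, the whole Fos window held 5.75 and 9.36 reads per kb in untreated replicates 1 and 2. Fos p300 site 5 held 4 and 5 reads in 693 bp, which is near or below that average. After LPS the order was another one. The highest values per kb were 36.3 ± 13.1 at Fos p300 site 1 and 36 ± 4.31 at Junb p300 site 2, and the lowest was 2.93 ± 1.57 at Jun p300 site 10 (SD, n = 2 each).

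PU.1 occupied most of these p300 sites before LPS. Of the 20 p300 sites, 18 overlapped a PU.1 peak of untreated cells, against 48.5% of all p300 sites, and 14 overlapped one of LPS cells, against 50.2%. The sites were also stronger and wider than most, with a median of 91.5 p300 reads and 842 bp against 32 reads and 486 bp over all sites, and neither reads nor width was matched. Among p300 peaks with a score of at least 100, 9 of 12 in the windows overlapped PU.1 in untreated cells, against 77.0% of all such peaks, and 6 of 9 did after LPS, against 69.7%. Among these stronger peaks the shares in the windows were thus no higher than over the genome. By window those with PU.1 in untreated cells were 5 of 5 Fos, 10 of 12 Jun and 3 of 3 Junb sites, and those with PU.1 in LPS cells 5, 7 and 2. In the p300 lists themselves 9 of the 20 sites were called before LPS only, 3 after LPS only and 8 in both states. Over all sites these shares were 38.7%, 38.1% and 23.2%. Seen from PU.1, 18 of the 51 PU.1 sites overlapped a p300 site, against 12.2% of all PU.1 sites. These PU.1 sites were also stronger, with a median of 86 PU.1 reads against 38 over all, and this was not matched.

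Reads of PU.1 were lower after LPS at most sites around Jun. Of the 51 PU.1 sites 34 had at least 40 reads in both libraries together, the minimum for giving a ratio. At 1 of them the LPS count was at least 2-fold higher and at 2 at least 2-fold lower, while over all such PU.1 sites 3.41% were higher and 2.65% lower by this measure. With a minimum of 10 reads all 51 sites had a ratio, and 2 were higher and 5 lower, against 11.5% and 9.43% of all PU.1 sites. At the minimum of 40, the higher one was Fos PU.1 site 12, given above. The lower ones were Jun PU.1 site 8 (chr4:94755648-94756156), with 59 untreated and 29 LPS reads, a ratio of 0.492 (0.304 to 0.779), and Jun PU.1 site 15 (chr4:94823328-94823805), with 35 and 16 reads, a ratio of 0.457 (0.236 to 0.848). Neither overlapped a p300 site, and both lay in H3K4me1 peaks. Each compares a pair of libraries, so their intervals cover counting error only and say nothing of the spread between cultures.

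The ratio was below 1 at 16 of 17 such sites at Jun (median 0.76, range 0.457 to 1.19), 7 of 11 at Fos and 4 of 6 at Junb. Over all PU.1 sites it was below 1 at 52.6%, with a median of 0.972. The sites with the most PU.1 reads differed little between the libraries. Jun PU.1 site 10 (chr4:94772566-94773709) had 331 and 311 reads, a ratio of 0.940 (0.802 to 1.10), and stood at percentile 99.9 of all PU.1 sites by reads. Junb PU.1 site 8 (chr8:87505357-87507067) had 213 and 186 reads, a ratio of 0.873 (0.713 to 1.07), with no p300 peak. In the Fos window the second site whose interval lay above 1 was Fos PU.1 site 11, 36.6 kb from the gene, with 61 and 98 reads (1.61, 1.16 to 2.25).

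**Figure D5:**
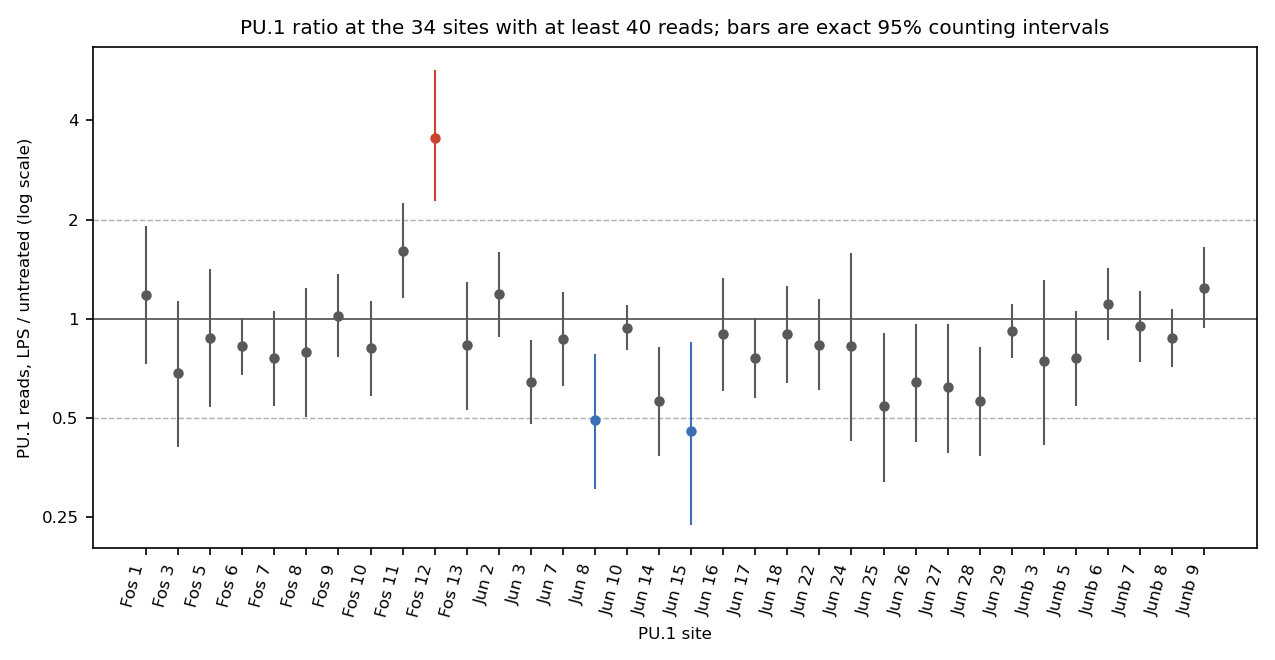
Ratio of PU.1 reads in the LPS to the untreated library (log axis) at the 34 PU.1 sites with at least 40 reads, with exact 95% counting intervals as bars and 1 library per condition. Fos PU.1 site 12 stands above the 2-fold line in red, Jun PU.1 sites 8 and 15 below it in blue, and 16 of 17 Jun sites lie under 1.

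Across the 20 p300 sites, log2 changes in p300 and in PU.1 reads had Pearson's r of 0.83 and Spearman's rho of 0.73. Over the 9429 p300 sites that held 40 or more reads of PU.1, r was 0.60 and rho 0.55. These are descriptions across sites, which share the libraries, and Fos p300 site 5 lies at the high end and Jun p300 sites 5 and 10 at the low end of both. Jun p300 site 3, with a p300 log2 fold change of -2.31, held 82 and 72 PU.1 reads, a ratio of 0.878 (0.631 to 1.22), and Jun p300 site 4 had close PU.1 counts as well.

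H3K4me1 covered 30.0% of the Fos window, 25.3% of the Jun window and 25% of the Junb window, in 26, 43 and 9 peaks. Over these peaks H3K4me1 reads exceeded input, scaled to total reads, by 5.34 times at Fos (exact 95% counting interval 4.62 to 6.20), 6.55 times at Jun (5.94 to 7.24) and 7.87 times at Junb (6.19 to 10.2). With background bins as library size the same ratios were 23.3, 28.6 and 34.4, so the size of the excess depends on the scaling. The intervals of neighbours in this order overlap. The median ratio of the 78 peaks was 6.07, against 6.72 over all H3K4me1 peaks. The widest peak at Jun was 5731 bp long (chr4:94763771-94769502), with 329 H3K4me1 and 43 input reads, a ratio of 7.60 (5.52 to 10.7). It overlapped no p300 site. The widest at Junb was 4316 bp long (chr8:87505026-87509342), with 347 and 36 reads, a ratio of 9.57 (6.78 to 13.9), and overlapped Junb p300 site 3.

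The gene positions themselves lay between H3K4me1 peaks in all 3 windows. At Fos the stretch without a peak was 2928 bp long and held 31 H3K4me1 and 34 input reads, a ratio of 0.905 (0.538 to 1.52). At Junb it was 5644 bp, with 65 and 58 reads (1.11, 0.769 to 1.61), and held 2 of the 3 p300 sites. At Jun it ran 52146 bp, of which 40911 bp lay inside the window, with 84 and 197 reads (0.423, 0.324 to 0.549). This direction depends on the scaling: with reads in 10 kb background bins as library size, an alternative added after the values were seen, the ratio at Jun was 1.85 (1.41 to 2.40). At Fos it was then 3.95 and at Junb 4.86. On that scale all 3 stretches still lay below the peaks of their windows. At Jun p300 site 1, which lies there, the 2 kb around the site centre held 0 H3K4me1 and 16 input reads. A count of 0 allows up to 3 reads, and 3 reads would be 5.37-fold below input on the scale of total reads and 1.23-fold below it with background bins. These figures take the 16 input reads as exact and leave out their counting error. With background bins H3K4me1 is therefore not shown to lie below input there. Junb p300 site 1 had 3 H3K4me1 and 15 input reads in 2 kb around its centre. Over its whole width of 3309 bp it had 23 and 32, where the whole of Jun p300 site 1 had 0 and 16.

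The p300 sites farther from the genes stood in H3K4me1. A peak overlapped 16 of the 20 sites, against 48.0% of all p300 sites. Among p300 peaks with a score of at least 100 it was 9 of 12 untreated peaks, against 77.3% of all, and 5 of 9 LPS peaks, against 66.5%, which are no higher shares. The exceptions among the 20 were Jun p300 sites 1 and 2 and Junb p300 sites 1 and 2. Within 1 kb of the centre, H3K4me1 over input had a median of 2.31 on the log2 scale over the 20 sites and 1.37 over all p300 sites. At 8 of 20 sites the central 500 bp held fewer H3K4me1 reads than either 500 bp beside it, against 16.5% of all sites. A site with few H3K4me1 reads can hardly meet this rule. The 20 sites held more H3K4me1 than most, and the shares were not matched for that. At Jun p300 site 4 the centre held 10 reads and the flanks 46 and 33. At Junb p300 site 3 the centre held 8 and the flanks 59 and 25, and at Fos p300 site 3 the centre held 17 and the flanks 39 and 30. Neither site whose p300 change passed the test showed this: Fos p300 site 5 had 15 reads in the centre and 6 and 3 beside it, and Jun p300 site 10 had 37, 23 and 30.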

How the data were processed

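The members and lists were chosen with earlier results of these data known. Reads were deposited by the authors as aligned positions with strand, 36 bp long, on mm9 per the submitters' processing notes, and the aligner is not given in the sources used here. In the deposited lists the score is -log10 of the MACS p-value, multiplied by 10 by the authors, per the deposited column description. Per the file headers, peaks of p300 were called against a library named naked, of PU.1 against random and of H3K4me1 against input. p300 replicates were merged before calling, per the series' design text. Coordinates are as deposited.

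From these, repeat reads at a position and strand were counted once, each read start was shifted 100 bp along its strand, and reads were counted on chromosomes 1 to 19 and X. p300 sites with at least 10 reads entered limma voom (limma 3.58.1 in R 4.3.3) with LPS as the one factor, and calls were made at a Benjamini-Hochberg adjusted p under 0.05. The untreated PU.1 peak file carries LPS in its header, but its own 14146 sites held 205549 untreated and 112968 LPS reads, so the labels were kept. PU.1 and H3K4me1 ratios carry exact 95% intervals conditional on the sum, for counting error only. Overlap means at least 1 bp. Sites with full values were those called, the nearest, the strongest, the PU.1 sites past 2-fold and the widest H3K4me1 peaks. Code was tested on simulated data. Alternatives were other scalings, limma-trend, a replicate block, all reads, a 50 bp shift, no filter and each p300 library left out. Promoters are from RefSeq (GRCm38.p6), and all 3 genes matched by symbol. Peak sequences are not printed, since no mm9 genome was used here.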

Additional observations from a re-analysis of the deposited data

How the results depend on the processing

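With total reads or with background bins of 10 kb as library size, limma voom called 0 sites in the windows and 0 over all sites, in both directions. At an unadjusted p under 0.05, total reads gave 1027 higher and 467 lower over all sites and 0 and 1 in the windows, and bins gave 956 and 493, and 0 and 1. In the windows the higher and lower counts, 1 and 1 as reported, were 2 and 5 with the replicate block, where Fos p300 site 1 and Jun p300 sites 3, 5, 9 and 11 were called besides the reported pair. The lower count was 0 with TMM scaling and 2 with all reads kept. The higher count was 0 with limma-trend and 2 with the 50 bp shift. Over all sites 388 were higher and 42 lower as reported. The block gave 896 and 395, TMM 22 lower and all reads kept 76 lower. Leaving out 1 library gave 0 to 2 higher and 0 to 3 lower in the windows, and 13 to 485 higher and 0 to 282 lower over all sites. The lone library of an arm is then assumed to vary like the others. The block took the number in the read files' names, over 2 pairs only. Deviations of same-numbered libraries had r = 0.233 over 19727 sites, and no label says that a number marks a shared culture or day.

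The log2 fold change kept its direction under all 12 alternatives at 15 of 20 sites. It turned at Junb p300 site 1 (-0.15) and site 2 (-0.31) without untreated replicate 1, at Jun p300 site 11 (0.48) and site 12 (0.15) without untreated replicate 2, at Jun p300 site 6 (-0.08) without LPS replicate 1 and at Jun p300 site 12 (0.05) without LPS replicate 2. Over the left-out libraries these sites ranged from -0.15 to 0.41, -0.31 to 0.89, -2.55 to 0.48, -1.14 to 0.15 and -0.08 to 0.63, in the order Junb 1, Junb 2, Jun 11, Jun 12 and Jun 6. Fos p300 site 5 was called under 5 of the 12 (adjusted p by limma 0.0259 to 0.634) and Jun p300 site 10 under 6 (0.000759 to 0.643). Fos p300 site 1 was called under 4 of the 12, Jun p300 site 5 under 3, Jun p300 site 11 under 2 and Jun p300 sites 3 and 9 under 1 each. With at least 10 PU.1 reads 2 of 51 sites were 2-fold higher and 5 lower, against 11.5% and 9.43% of all PU.1 sites at that minimum. H3K4me1 over input scaled on background bins was 23.3 at Fos, 28.6 at Jun and 34.4 at Junb, and between the peaks at the gene positions it turned above 1 at Fos (3.95) and Jun (1.85). A PU.1 peak of the same condition overlapped 24 of 31 p300 peaks, and 15 of 21 at a score of at least 100, where the share over all p300 peaks was 77.0% untreated and 69.7% after LPS. Depth also limits the p300 values, since sites held 40 to 352 reads over the 4 libraries and as few as 1 in one.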

Other observations

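Of the PU.1 sites under the minimum of 40 reads, 1 had an interval that did not include a ratio of 1. Jun PU.1 site 9, at 45.6 kb inside an H3K4me1 peak, had 25 untreated and 11 LPS reads, a ratio of 0.440 (exact 95% counting interval 0.195 to 0.927). Above that minimum, Jun PU.1 sites 14 and 28 had 80 and 45 reads each, a ratio of 0.563 (0.381 to 0.820), the former without a p300 site and the latter at Jun p300 site 11. Jun PU.1 site 3, beside the gene at 4.2 kb, had 123 and 79 reads, a ratio of 0.642 (0.478 to 0.859). None of these has a replicate library.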
